A study of Mus musculus with 6 samples.

Results

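The endothelial cells that line the heart's blood vessels, and the growth factors that maintain them, were examined through 37 genes in ventricles with raised miR-499. The 37 genes were chosen by name as endothelial markers, endothelial receptors and transcription factors, Notch and arteriovenous genes, and secreted angiogenic factors, out of 19938 genes measured with a probe set of their own. Earlier results of these data were known when they were chosen, so comparisons of the list with all genes are descriptions and not tests. All 37 were found, and each had 1 probe set that the array annotation pairs with its symbol alone. Expression in whole ventricles at postnatal day 17 was measured on Affymetrix Mouse Gene 1.0 ST arrays, 1 for each mouse. The study compared 3 transgenic mice of the line TG-17, in which mouse miR-499 is expressed from the alpha-myosin heavy chain (Myh6) promoter, with 3 wild-type (WT) littermates. The transgene was made by injection of FVB/NCrl embryos, and the Myh6 promoter is active in cardiomyocytes, not in endothelial cells. All transgenic mice came from 1 line, so an effect of the miR-499 transgene and an effect of its integration site cannot be told apart.

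Cardiac capillaries run beside nearly every cardiomyocyte, and cardiomyocytes secrete vascular endothelial growth factor A (VEGF-A), which binds receptor tyrosine kinases on endothelial cells and keeps them growing during postnatal heart growth. Endothelial cells hold together through junction proteins such as VE-cadherin, and their identity is set by ETS and SOX transcription factors. Notch receptors and their ligands pass signals between neighbouring endothelial cells, limit sprouting in response to VEGF-A and set arterial identity.

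Values are log2 expression levels normalized by the authors, and a difference of 1 on this scale is a 2-fold change. Differences are TG-17 minus WT, tested with limma over all 35556 probe sets, and the call used here was a log odds of difference (B) above 0. A second and looser description was an unadjusted limma p under 0.05 without correction for the number of genes, which is no call and is read against its background share. The array medians were 6.89 to 6.91 in TG-17 and 6.93 to 6.95 in WT, and Pearson's r between arrays, across probe sets, was 0.992 to 0.994 within TG-17, 0.992 to 0.993 within WT and 0.990 to 0.992 between the groups. The probe set for Mir499 itself, the microRNA that the transgene carries, had log2 values of 9.31, 9.33 and 8.87 in TG-17 and 5.48, 5.34 and 5.68 in WT. This was a 12.7-fold difference (log2 3.67 ± 0.15 SE, limma adjusted p = 0.00772), and each mouse matched its label. Of all probe sets 130 were at B above 0, 55 higher and 75 lower in TG-17, and 2 passed an adjusted p under 0.05. Each of the 37 genes lay above the array median in every mouse, with means over the 6 mice of 7.22 to 11.25, though the arrays came with no detection call.

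The sequences that bear on the comparison are the microRNA that was raised and the endothelial microRNA that is embedded in 1 of the 37 genes, each taken from RefSeq (GRCm38.p6) and written with the seed, bases 2 to 8, in capitals. The mature strand of miR-499 lies at chr2:155622893-155622913 on the plus strand, and that of miR-126a at chr2:26591402-26591423 on the plus strand, inside the endothelial gene Egfl7. The seeds differ, so the pair belongs to different seed families.
mmu-miR-499-5p: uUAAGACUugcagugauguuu
mmu-miR-126a-3p: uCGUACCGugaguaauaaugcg

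Differences between TG-17 and WT were small in most of the endothelial genes and went in both directions. Of the 37 genes 1, the transcription factor Sox17, was called at B above 0 and rose, 1.37-fold, against a background of 0.341% of all 19938 genes. None passed an adjusted p under 0.05 in limma (background 0.01%), and 13 passed an unadjusted p under 0.05, 9 higher and 4 lower in TG-17. The 9 were Sox17, Sox18, Fli1, S1pr1, Eng, Robo4, Ptprb, Flt1 and Vegfa, and the 4 were Jag1, Efnb2, Apln and Aplnr. Their limma adjusted p values were 0.205 to 0.322. The background of genes at an unadjusted p under 0.05 was 15.4% of all genes, 6.65% higher and 8.76% lower. Among the 9571 genes whose mean level lay in the range of the members, it was 17.5%, with 11.1% higher and 6.34% lower. The same shares are the background to the counts in each role list below. The median difference of the 37 genes was 0.034, with a range of -0.34 to 0.45, against -0.018 for all genes and 0.021 for genes of the same level range. The difference was below 0.25 in size in 32 of the 37 genes (86.5%), against 93.6% of all genes and 94.8% of genes of the same level range, and its median size was 0.124, against 0.0835 and 0.0764. The linear levels summed over the 37 genes were 34672 to 34989 in TG-17 and 32785 to 33631 in WT, without overlap, and their mean log2 values were 9.50 to 9.52 and 9.45 to 9.49, also without overlap. The sum is weighted to bright genes, among them Vegfa and S1pr1 (differences of 0.30 and 0.35) and Kdr and Cdh5 (-0.046 and 0.034). Neither measure was computed for genes of the same level range or after another normalization. In bulk tissue, fewer cells of a type and less RNA per cell cannot be told apart, and the same holds for more of either.

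**Figure D1:**
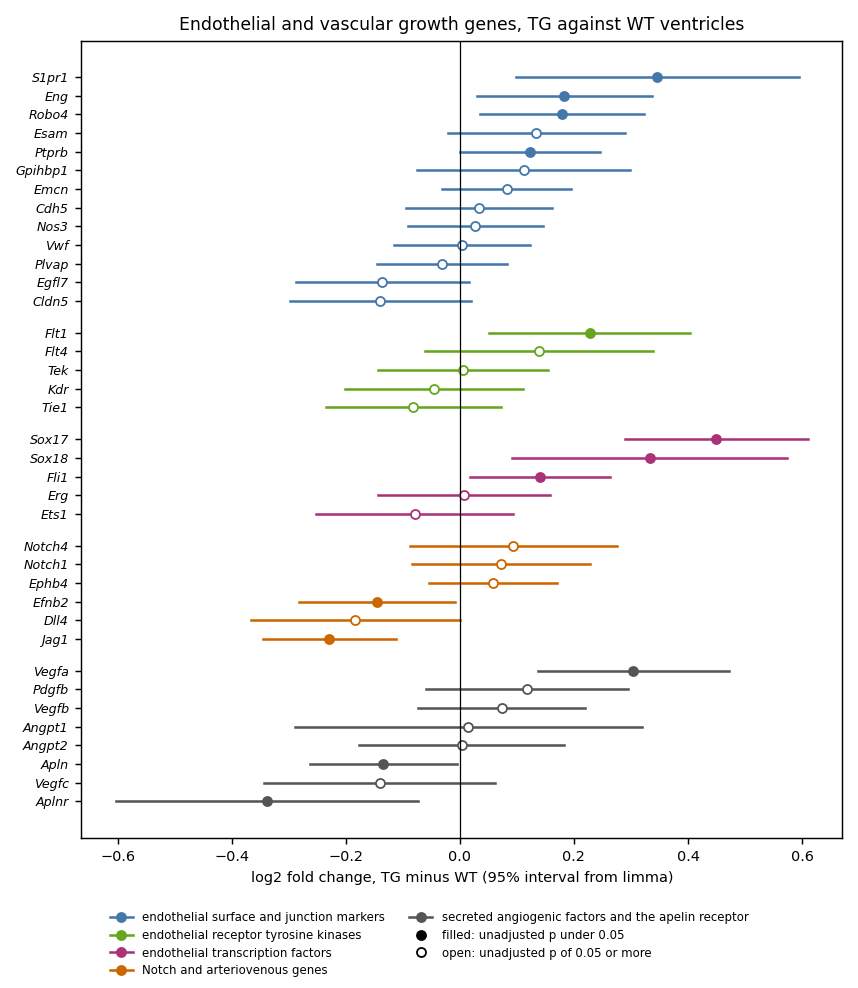
Difference between TG-17 and WT (log2, points) with 95% limma confidence intervals (bars) for the 37 genes, grouped by role, with filled points for an unadjusted p under 0.05 and open points for the rest. Sox17 at 0.45 is the highest and Aplnr at -0.34 the lowest, and most intervals cross 0.

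The 3 TG-17 values lay wholly above the 3 WT values in 12 genes and wholly below them in 7, and the groups overlapped in 18. Across all genes the groups did not overlap in 25.8%, with TG-17 above in 12.2% and below in 13.6%. In the level range of the members these shares were 32%, 20.4% and 11.6%. The genes varied little among mice. The median within-group SD was 0.070 for the 37 genes and 0.085 for all genes, which include dimmer ones. No SD was computed for genes of the same level range.

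The pan-endothelial surface and junction markers, 13 genes, carried 4 at an unadjusted p under 0.05 in limma, all higher in TG-17, and none lower. Their median difference was 0.082. Cdh5, which encodes VE-cadherin, the adhesion protein of endothelial junctions, had log2 values of 10.97, 11.00 and 11.07 in TG-17 and 10.95, 11.01 and 10.98 in WT. The groups overlapped, and the difference was 0.034 ± 0.053 (SE), with a 95% interval of -0.094 to 0.16. Vwf, the clotting factor stored in endothelial cells, Nos3, the endothelial nitric oxide synthase, and Plvap, which forms the diaphragms of fenestrae, also overlapped between the groups, at differences of 0.0043, 0.027 and -0.031. Gpihbp1, which carries lipoprotein lipase to the capillary lumen, overlapped at 0.11 (limma adjusted p = 0.517).

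S1pr1, the endothelial receptor for sphingosine-1-phosphate that steadies new vessels, had the largest difference of these markers. It had log2 values of 10.91, 10.82 and 10.94 in TG-17 and 10.33, 10.60 and 10.69 in WT. Every TG-17 mouse lay above every WT mouse, and WT replicate 1 was the lowest. The difference was 0.35 ± 0.10 (SE), or 1.27-fold (limma adjusted p = 0.254). Without WT replicate 1, it was 0.24.

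Eng encodes endoglin, an endothelial co-receptor of the TGF-beta family, and Robo4 is an endothelial guidance receptor that stabilises vessels. Eng had log2 values of 10.79, 10.82 and 10.75 in TG-17 and 10.58, 10.53 and 10.70 in WT, and Robo4 had 9.73, 9.67 and 9.81 in TG-17 and 9.50, 9.56 and 9.60 in WT. Neither gene's groups overlapped. Eng differed by 0.18 ± 0.063 (SE; 1.14-fold, limma adjusted p = 0.277) and Robo4 by 0.18 ± 0.059 (SE; 1.13-fold, limma adjusted p = 0.27). Ptprb, the phosphatase VE-PTP that restrains Tie2, had 10.72, 10.74 and 10.70 in TG-17 and 10.57, 10.57 and 10.65 in WT. These groups did not overlap either, at 0.12 ± 0.051 (SE; 1.09-fold, limma adjusted p = 0.322). These 3 genes depended on single mice. Eng missed the unadjusted threshold without TG replicate 1, TG replicate 2, WT replicate 1 or WT replicate 2 (differences of 0.15 to 0.18), and Robo4 missed it without TG replicate 3, WT replicate 1 or WT replicate 2 (0.14 to 0.18). With 1 mouse left out, Ptprb passed it only without WT replicate 3 and missed it without any of the other 5 mice (0.11 to 0.13).

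A further 4 surface genes had groups that did not overlap but missed the unadjusted threshold. Esam, an adhesion molecule of endothelial tight junctions, had log2 values of 10.20, 10.10 and 10.14 in TG-17 and 9.92, 10.03 and 10.09 in WT (0.13 ± 0.064 SE). Emcn, the sialomucin endomucin of capillaries and veins, had 10.16, 10.20 and 10.21 in TG-17 and 10.10, 10.12 and 10.10 in WT (0.082 ± 0.046 SE). Both were above WT in every TG-17 mouse, with limma adjusted p values of 0.375 and 0.441. Cldn5, the main claudin of endothelial tight junctions, lay below WT in every TG-17 mouse, with log2 values of 9.54, 9.55 and 9.43 in TG-17 and 9.57, 9.73 and 9.65 in WT (-0.14 ± 0.065 SE, limma adjusted p = 0.367). The tight-junction genes Esam and Cldn5 thus had differences of opposite sign, neither past the threshold with the deposited values.

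Egfl7, a protein that endothelial cells secrete into their matrix, had log2 values of 10.34, 10.39 and 10.25 in TG-17 and 10.51, 10.49 and 10.39 in WT. TG-17 lay below WT by a gap of only 0.004, and the difference was -0.14 ± 0.063 (SE; limma adjusted p = 0.361). The probe set of Mir126a, the endothelial microRNA inside Egfl7 whose mature sequence was given with that of miR-499, had 6.75, 7.12 and 6.81 in TG-17 and 7.11, 6.73 and 6.80 in WT. Its groups overlapped, at 0.012 ± 0.14 (SE).

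**Figure D2:**
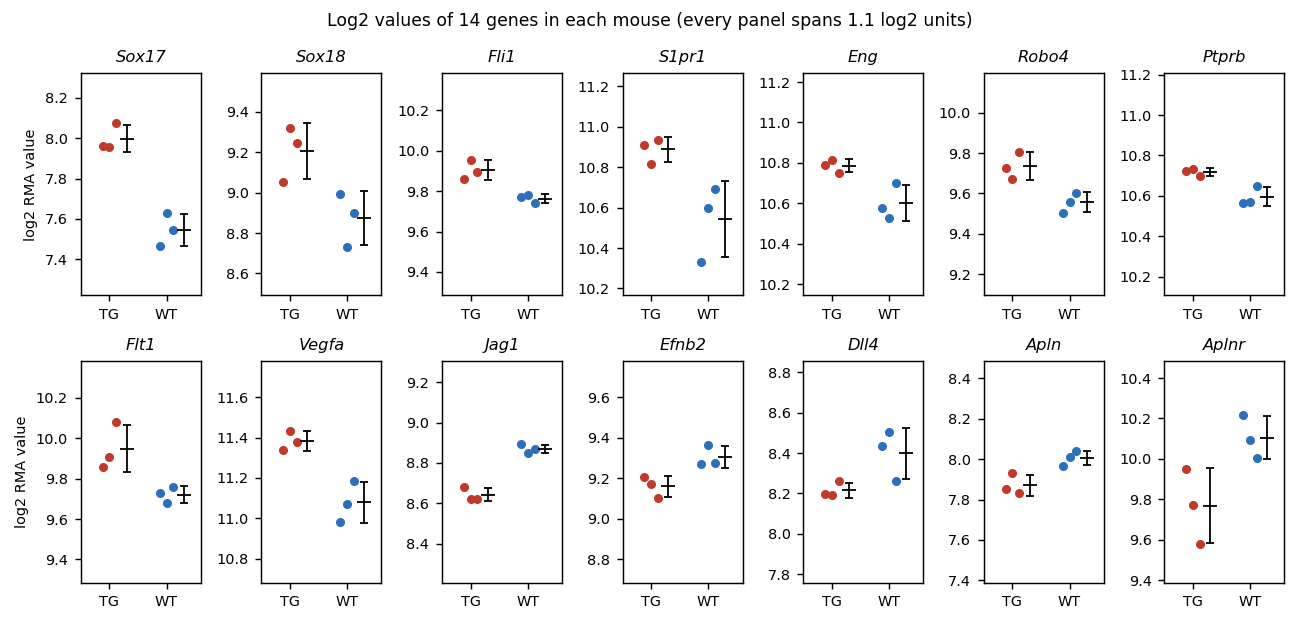
Log2 expression level of the 13 genes at an unadjusted p under 0.05 and of Dll4 in each mouse (points), TG-17 (TG) left of WT, with the group mean and SD beside the points (n = 3 mice each). The TG-17 points lie above all WT points in the 9 genes that were higher and below them in the 4 that were lower, and in Dll4 the third mouse of each group is at 8.26.

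Of the 5 endothelial receptor tyrosine kinases 1 passed the unadjusted threshold in limma, Flt1, which was higher in TG-17. The median of the list was 0.0059. Flt1 encodes VEGF receptor 1, which binds VEGF-A tightly and in its soluble form keeps it from VEGF receptor 2. It had log2 values of 9.86, 9.91 and 10.08 in TG-17 and 9.73, 9.68 and 9.76 in WT, with no overlap. The difference was 0.23 ± 0.072 (SE; 1.17-fold, limma adjusted p = 0.266), and it missed the unadjusted threshold without WT replicate 2, where it was 0.21. Kdr, the main signalling receptor for VEGF-A (VEGF receptor 2), had 11.26, 11.30 and 11.12 in TG-17 and 11.31, 11.25 and 11.27 in WT. The groups overlapped, at -0.046 ± 0.064 (SE; 95% interval -0.2 to 0.11). Tie1, an orphan receptor that works with Tie2, had the lowest difference of the list. Its log2 values were 10.18, 10.08 and 10.17 in TG-17 and 10.20, 10.31 and 10.16 in WT, which overlapped (-0.081 ± 0.063 SE, limma adjusted p = 0.566). Tek, which encodes Tie2, the angiopoietin receptor, differed by 0.0059 and Flt4, the receptor of lymphatic growth factors, by 0.14, and both overlapped between the groups.

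The 5 endothelial transcription factors held 3 genes at an unadjusted p under 0.05 in limma, all higher in TG-17, with a list median of 0.14. Sox17, a SOX factor of arterial endothelium, had log2 values of 7.96, 7.95 and 8.07 in TG-17 and 7.47, 7.63 and 7.54 in WT. The lowest TG-17 mouse lay 0.33 above the highest WT mouse, the widest gap among the 37 genes. Sox17 rose by 0.45 ± 0.066 (SE), or 1.37-fold, with B of 0.498, a limma adjusted p of 0.205 and an unadjusted p under 0.05 that 6 of 6 fits with 1 mouse left out also gave. The call at B above 0 was lost without any 1 of the 6 mice (B of -0.85 to -0.18), while the difference stayed at 0.41 to 0.49. The adjusted p over all alternatives ran from 0.0504 to 0.401.

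Sox18, a related factor of the same SOX subgroup that acts in blood and lymphatic vessels, had log2 values of 9.05, 9.32 and 9.25 in TG-17 and 8.99, 8.73 and 8.90 in WT. TG-17 lay above WT without overlap, though TG replicate 1 and WT replicate 1 came close. The difference was 0.33 ± 0.099 (SE; 1.26-fold, limma adjusted p = 0.256). Fli1, an ETS factor of endothelial and blood cells, had 9.86, 9.96 and 9.89 in TG-17 and 9.77, 9.78 and 9.74 in WT. These groups did not overlap, at 0.14 ± 0.051 (SE; 1.1-fold, limma adjusted p = 0.291). In the fits with 1 mouse left out, Fli1 passed only without TG replicate 1, and missed the threshold without any of the other 5 mice (0.11 to 0.15). The other ETS factors overlapped between the groups. Erg, which keeps endothelial cells differentiated, differed by 0.0074 ± 0.062 (SE). Ets1, which acts in sprouting endothelium, had log2 values of 9.73, 9.67 and 9.54 in TG-17 and 9.77, 9.76 and 9.65 in WT (-0.079 ± 0.071 SE, limma adjusted p = 0.619).

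The 6 Notch and arteriovenous genes held no gene that was higher in TG-17 at an unadjusted p under 0.05 in limma and 2 that were lower, Jag1 and Efnb2. The list median was -0.044. Jag1, a Notch ligand of endothelium and smooth muscle, had log2 values of 8.68, 8.62 and 8.62 in TG-17 and 8.89, 8.85 and 8.87 in WT. The highest TG-17 mouse lay 0.17 below the lowest WT mouse. The difference was -0.23 ± 0.048 (SE), 1.17-fold lower in TG-17, with a limma adjusted p of 0.224 and B of -1.17. Efnb2, the ephrin ligand that marks arterial endothelium, had 9.20, 9.17 and 9.10 in TG-17 and 9.27, 9.37 and 9.28 in WT. It did not overlap between the groups, at -0.15 ± 0.056 (SE; 1.11-fold lower, limma adjusted p = 0.305). Of the fits with 1 mouse left out, Efnb2 passed only that without TG replicate 1, and missed the threshold without any of the other 5 mice (-0.16 to -0.12).

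Dll4, the Notch ligand that tip cells and arteries express in response to VEGF-A, stood at the threshold. It had log2 values of 8.20, 8.19 and 8.26 in TG-17 and 8.43, 8.50 and 8.26 in WT. TG replicate 3 and WT replicate 3 were equal to within 0.00053, with the TG-17 group just below. The difference was -0.18 ± 0.076 (SE; 95% interval -0.37 to 0.00033, limma adjusted p = 0.324), just outside the unadjusted threshold. Without WT replicate 3, it was -0.25 and passed that threshold. The receptors were closer to WT. Notch1, the main arterial Notch receptor, had 9.52, 9.60 and 9.70 in TG-17 and 9.51, 9.51 and 9.59 in WT, which overlapped (0.072 ± 0.064 SE, 95% interval -0.084 to 0.23). Notch4, a receptor largely of endothelial cells, had the highest difference of the list, with log2 values of 9.15, 9.25 and 9.33 in TG-17 and 9.08, 9.12 and 9.26 in WT. These too overlapped (0.094 ± 0.075 SE, limma adjusted p = 0.576). Ephb4, the venous receptor of Efnb2, had 9.91, 9.89 and 9.86 in TG-17 and 9.84, 9.82 and 9.83 in WT, a small difference without overlap (0.058 ± 0.046 SE, limma adjusted p = 0.579).

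**Figure D3:**
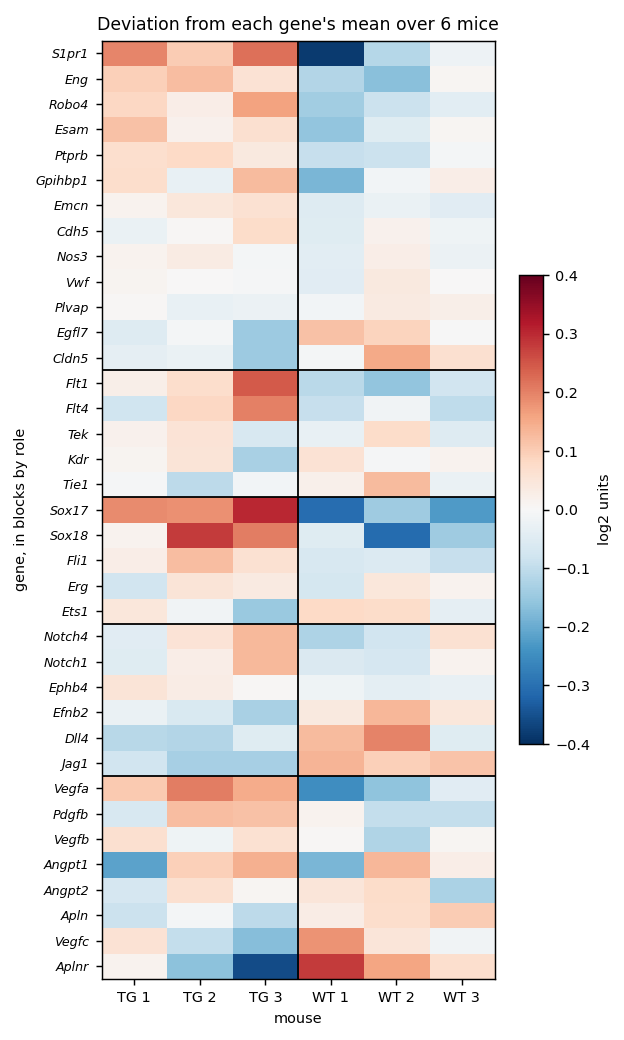
Deviation of each gene in each mouse from its mean over the 6 mice (log2, colour), with genes in rows by role and the TG-17 mice left of the WT mice. Sox17 is above its mean in all TG-17 mice and Jag1 below it, while rows such as Tek and Erg show no split by group.

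The secreted factors and the apelin receptor, 8 genes, held 1 gene that was higher in TG-17 at an unadjusted p under 0.05 in limma, Vegfa, and 2 that were lower, Apln and Aplnr. The list median was 0.0090. Vegfa had log2 values of 11.34, 11.43 and 11.38 in TG-17 and 10.98, 11.07 and 11.18 in WT. Every TG-17 mouse was higher than every WT mouse, by a gap of 0.15. The difference was 0.30 ± 0.069 (SE), or 1.23-fold, with a limma adjusted p of 0.225 and B of -1.50. Other ligands of the same receptors overlapped between the groups. Vegfb, a ligand of VEGF receptor 1 that is abundant in heart muscle, differed by 0.073 ± 0.060 (SE), and Vegfc, the lymphatic growth factor, by -0.14 ± 0.084 (SE). Pdgfb, by which endothelial cells recruit pericytes, differed by 0.12 ± 0.073 (SE).

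Apelin and its receptor, which act on endothelial growth and on the force of the heartbeat, were both below WT. Apln had log2 values of 7.85, 7.93 and 7.83 in TG-17 and 7.97, 8.01 and 8.04 in WT, and Aplnr had 9.95, 9.77 and 9.58 in TG-17 and 10.22, 10.09 and 10.01 in WT. Neither gene's groups overlapped, and Aplnr had an SD of 0.19 among TG-17 mice and 0.11 among WT mice. Apln differed by -0.13 ± 0.053 (SE; 1.1-fold lower, limma adjusted p = 0.313) and Aplnr by -0.34 ± 0.11 (SE; 1.26-fold lower, limma adjusted p = 0.268). Aplnr missed the threshold without TG replicate 3 (-0.24) or WT replicate 1 (-0.28). When 1 mouse was left out, Apln passed only without TG replicate 2, and missed it without any of the other 5 mice (-0.15 to -0.11). The angiopoietins, ligands of Tie2, overlapped between the groups. Angpt1, which keeps vessels quiet, had the widest interval of the 37 genes (0.015, 95% interval -0.29 to 0.32), and Angpt2, which loosens them, differed by 0.0029.

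Normalization bore on the direction of the small differences. When each array was centred on its own median, all differences moved up by 0.051, the 37 genes had a median of 0.085, and 11 were higher and 2 lower in TG-17 at an unadjusted p under 0.05 in limma. After a second quantile normalization the median was 0.0035, and 5 were higher and 6 lower, against 9 and 4 with the deposited values. Of the genes in the level range of the members, 21.0% were higher and 2.85% lower after centring, and 7.39% and 7.43% after the second quantile normalization, against 11.1% and 6.34% with the deposited values. These genes had medians of 0.072 and -0.00018 under the same settings, so their median moved with the setting as that of the members did. Eng, Robo4, Ptprb, Fli1 and Apln missed the unadjusted threshold after the second quantile normalization, and Efnb2 and Apln missed it after centring. Cldn5 (-0.19), Egfl7 (-0.20) and Dll4 newly passed it as lower after the second quantile normalization. Esam (0.18) and Emcn (0.13) newly passed it as higher after centring. Sox17, Sox18, S1pr1, Vegfa and Jag1, 5 of the 13 genes, kept an unadjusted p under 0.05 in all 15 alternatives, with 1 mouse left out or another setting of the test or normalization. The share of all genes that did so was not counted, and the alternatives reuse the same arrays. None of the 37 genes passed a limma adjusted p under 0.05 in any alternative.

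**Figure D4:**
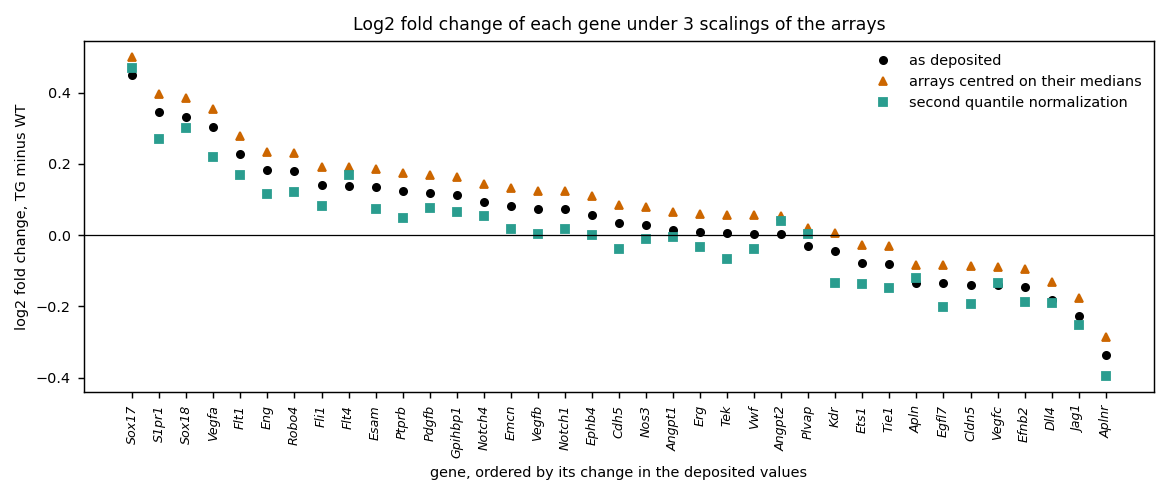
Difference between TG-17 and WT (log2) of each of the 37 genes with the deposited values, after centring each array on its median and after a second quantile normalization. Sox17 stays highest under all 3, and the median of the genes is 0.034, 0.085 and 0.0035.

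Endothelial genes outside the 37 were examined with lists drawn up by function, also with earlier results of these data known. Of 20 further pan-endothelial genes 18 had a probe set of their own, with a median of 0.0095, and 1 was higher in TG-17 at an unadjusted p under 0.05 in limma and none lower. Their summed linear levels were 29591 to 30479 in TG-17 and 28281 to 29321 in WT, without overlap, while their mean log2 values overlapped (9.742 to 9.755 and 9.714 to 9.744). The gene that was higher was Aqp1, the water channel of capillaries, with log2 values of 11.77, 11.81 and 11.90 in TG-17 and 11.44, 11.55 and 11.62 in WT, which did not overlap (0.29 ± 0.068 SE, 1.22-fold, limma adjusted p = 0.228). A list of 20 genes held VEGF, angiopoietin and PDGF ligands and receptors or co-receptors, and beside them the hypoxia factors Hif1a and Epas1, Adm, Calcrl, Fgf1, Fgf2, Hgf and Cxcl12. Of these 20 genes 2 were higher and 1 lower, with a median of 0.039. The 3 were Plxnd1, a semaphorin receptor of endothelium (0.13, limma adjusted p = 0.291), Pdgfd, a ligand of the PDGF beta receptor (0.17, limma adjusted p = 0.315), and the fibroblast growth factor Fgf2 (-0.18, limma adjusted p = 0.286). In the 13 further Notch pathway genes 2 were higher and none lower, with a median of -0.040. Beside the counts of these lists, 15.4% of all genes passed that threshold, 6.65% higher and 8.76% lower. Lfng, which modifies Notch receptors so that they favour Delta ligands, differed by 0.32 ± 0.11 (SE; limma adjusted p = 0.272). Hey1, a target gene of Notch, differed by 0.30 ± 0.11 (SE; limma adjusted p = 0.302), with overlapping groups. Jag1 on the one side and Lfng and Hey1 on the other thus had differences of opposite sign within the pathway. By mean, 6 of the 13 further Notch genes were higher in TG-17 and 7 lower. Hey2 (-0.053), Heyl (-0.10) and Nrarp (-0.062) were among the lower ones and Hes1 (0.045) among the higher, none past the unadjusted threshold.

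Markers of the other cells of a ventricle were measured beside these genes, as linear levels summed over each list. No marker passed an unadjusted p under 0.05 in limma among 6 endocardial genes (summed levels 1961 to 2217 in TG-17 and 1965 to 2112 in WT), 4 lymphatic endothelial genes (1283 to 1405 and 1280 to 1395) or 10 ventricular cardiomyocyte genes (130098 to 132762 and 130376 to 132003). The sums of each of these lists overlapped between the groups. Among 12 pericyte and smooth muscle genes 1 was higher in TG-17, the potassium channel subunit Abcc9 (0.24, limma adjusted p = 0.224), and 3 contractile genes were lower, Myh11 (-0.31), Acta2 (-0.22) and Cnn1 (-0.43), at limma adjusted p values of 0.225, 0.275 and 0.302. The summed level of that list was 21060 to 21596 in TG-17 and 21060 to 21691 in WT. By mean, 8 of the 12 genes were lower in TG-17 and 4 higher, with a list median of -0.082. The sum is weighted to the brightest genes, of which Abcc9, Rgs5 (0.092) and Des (0.12) were higher and Acta2 lower. Which cells of the ventricle made Abcc9 and Des was not resolved, so their differences are not assigned to pericytes or smooth muscle. Fibroblast markers, 10 genes, summed to 36389 to 37562 in TG-17 and 35066 to 35891 in WT, without overlap. Of them 1, the actin-severing protein gene Gsn, was higher in TG-17 at an unadjusted p under 0.05. By mean, 6 of the 10 genes were higher in TG-17 and 4 lower, with a list median of 0.060. The lower ones were Col1a1 (-0.054), Col1a2 (-0.047), Col3a1 (-0.015) and Dpt (-0.033). This sum too is weighted to bright genes, among them Dcn (0.12) and Gsn (0.13). Leukocyte markers, 12 genes, had 1 higher (Cd14) and 1 lower (Cd3e) at that threshold and sums of 3171 to 3436 in TG-17 and 3067 to 3270 in WT. Red blood cell markers, with 2 of 8 genes found, summed to 812 to 1029 in TG-17 and 787 to 1064 in WT. Of 7 atrial cardiomyocyte markers 4 were lower in TG-17 at that threshold (Myl7, Myl4, Sln and Nppa, of which Myl7 and Myl4 were at B above 0) and none higher, with sums of 3929 to 4051 in TG-17 and 4538 to 5394 in WT. Jag1 and Vegfa are also made outside endothelium, and cardiomyocytes secrete VEGF-A. The ventricular cardiomyocyte, atrial, smooth muscle and fibroblast values therefore stand beside the differences of Jag1 and Vegfa. The part of these cells in them was not tested.

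The promoters of the endothelial genes were read for ETS and SOX letters. These are short patterns after the binding motifs of the transcription factor families that include Fli1 and Sox17. RefSeq windows of 250 bases before to 50 after the start were given for 21 of the 37 genes. The ETS pattern CNGGAAG, a loose form in which N is any base, was read on both strands. It was in the windows of 11 of the 21 genes (52.4%): Apln, Dll4, Egfl7, Emcn, Ephb4, Erg, Flt1, Flt4, Notch4, Robo4 and Tie1. Among all 27025 genes with windows 34.7% held it. The SOX motif ACAANG was in 10 of the 21 (47.6%), against 44.9% of all genes. The windows of Flt1, Robo4 and Jag1, which are among the genes at an unadjusted p under 0.05 in limma and show a window with and without a match, are at chr5:147725962-147726261 on the minus strand, chr9:37401722-37402021 on the plus strand and chr2:137116471-137116770 on the minus strand (GRCm38.p6), with the ETS match in capitals. The match begins 73 bases before the start in Flt1 (CTGGAAG) and 50 bases before it in Robo4 (CAGGAAG). Jag1 holds no match of this pattern. Its window and that of Flt1 also hold GGAAG after other letters, which was not counted. Genes with and without a match were on both sides of 0, and a match of letters is no measured binding.
Flt1: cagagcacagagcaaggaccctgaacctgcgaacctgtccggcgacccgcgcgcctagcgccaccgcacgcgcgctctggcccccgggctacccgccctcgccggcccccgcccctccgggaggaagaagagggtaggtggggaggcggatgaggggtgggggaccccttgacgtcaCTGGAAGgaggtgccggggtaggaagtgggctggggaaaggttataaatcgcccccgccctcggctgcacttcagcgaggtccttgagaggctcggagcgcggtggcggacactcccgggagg
Robo4: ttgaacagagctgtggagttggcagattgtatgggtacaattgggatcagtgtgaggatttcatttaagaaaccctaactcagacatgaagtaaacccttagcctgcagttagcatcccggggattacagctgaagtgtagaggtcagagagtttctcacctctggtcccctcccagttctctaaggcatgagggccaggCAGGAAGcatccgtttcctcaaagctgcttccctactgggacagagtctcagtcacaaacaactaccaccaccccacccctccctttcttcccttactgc
Jag1: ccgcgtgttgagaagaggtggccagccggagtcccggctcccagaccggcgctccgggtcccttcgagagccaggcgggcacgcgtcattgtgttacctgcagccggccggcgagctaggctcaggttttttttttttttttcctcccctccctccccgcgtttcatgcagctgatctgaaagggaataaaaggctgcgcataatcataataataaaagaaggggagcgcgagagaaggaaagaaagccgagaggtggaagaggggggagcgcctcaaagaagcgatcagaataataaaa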

How the data were processed

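Ventricle RNA from 3 TG-17 mice and 3 WT littermates, all separate animals, was hybridised to 1 array each. The log2 values deposited by the authors were made with RMA, per the submitters' processing notes. RMA corrects background, equalises the arrays by quantiles and summarises probes, and it tends to understate fold changes. No source used here names its version. The values were used as deposited for all 35556 probe sets, with no filter. Groups came from the sample labels, and line and age from the study's text. Each gene was read from the probe set with 1 symbol in the platform annotation and the highest mean. Of the probe sets 21789 had 1 symbol, 1621 several and 12146 none here.

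TG-17 was compared with WT by limma 3.58.1 in R 4.3.3 (lmFit, eBayes, assumed share of changed probe sets 0.01), with Benjamini-Hochberg adjustment over all probe sets, and the script was tested on simulated data. Precision is limited by the number of arrays. The values of every mouse were given for genes at B above 0 or an unadjusted p under 0.05, genes whose groups did not overlap, the highest and lowest difference of each role list, and Cdh5, Kdr, Vegfa, Notch1 and Dll4. From other lists up to 4 genes at an unadjusted p under 0.05 were named. The members and lists were chosen with earlier results of these data known. The test was repeated without dim probe sets, on single-symbol probe sets, on centred and on requantiled arrays, with an intensity trend, with robust moderation, with weighted arrays, with replicate numbers as blocks, at an assumed share of 0.05, on gene means and without each mouse in turn. Promoter and microRNA sequences are from RefSeq (GRCm38.p6).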

Additional observations from a re-analysis of the deposited data

How the results depend on the processing

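The alternatives changed how many genes were called. Centring and the second quantile normalization also moved the members' small differences, to medians of 0.085 and 0.0035 against 0.034 with the deposited values. Counts of all probe sets at an adjusted p under 0.05 in limma were 52 with bright probe sets only, 9 with single-symbol probe sets only and 26 with an intensity trend, against 2 with the deposited values and all probe sets. Counts at B above 0 were 287 with the trend and 714 at an assumed share of 0.05, against 130, and 3 members (Sox17, Jag1 and Vegfa) were at B above 0 at that share, against 1. With 1 mouse left out, 29 to 112 probe sets were at B above 0, 0 to 1 passed the adjusted p, 0 to 0 members were at B above 0 and 6 to 13 members were at an unadjusted p under 0.05. The lowest member counts were 6 without WT replicate 1, 6 without WT replicate 2 and 7 without TG replicate 3, where 11.1%, 11.7% and 11.0% of all probe sets passed, against 15.5% with all mice. The highest were 18 with the intensity trend (11 higher and 7 lower, 16.9% of all probe sets) and 15 with bright probe sets only (23.5%), against 13. With the replicate number as a block, 69 probe sets and 0 members were at B above 0, 0 probe sets passed the adjusted p and 8 members passed the unadjusted one, beside 14.3% of all probe sets. The block has no known basis, since same-numbered mice deviated together by correlations of only 0.024, -0.00 and 0.057. Over the member values, 467 kept direction and side of the unadjusted threshold, 44 no longer passed it, 19 newly passed it and 25 changed sign, all in members that did not pass it with the deposited values. Sign changed after centring for Plvap (0.020) and Kdr (0.0051), and after the second quantile normalization for Cdh5 (-0.038), Vwf (-0.040), Plvap (0.0035), Nos3 (-0.011), Tek (-0.067), Erg (-0.034) and Angpt1 (-0.0041). Leaving out 1 mouse gave both signs for Vwf (-0.018 to 0.024), Tek (-0.020 to 0.044), Erg (-0.026 to 0.047), Angpt1 (-0.072 to 0.13), Angpt2 (-0.060 to 0.040) and Kdr (-0.083 to 0.0071). The cause of these shifts was not tested. The fits without 1 mouse also used fewer mice, and those on chosen probe sets fewer probe sets. With 3 mice a group and no detection calls, differences of the size of most members could not be told from 0.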
